A study of Mus musculus with 12 samples.

Results

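The aryl hydrocarbon receptor pathway is described here through 6 genes, Ahr, Arnt, Ahrr, Cyp1a1, Cyp1b1 and Tiparp, chosen by name and all found among the 43346 genes of the deposited table. RNA-seq libraries were made from 12 mouse veins harvested at 7 days: 6 jugular veins after a sham operation (sham) and 6 venous limbs of an AVF after AVF-CKD surgery (AVF-CKD), letters read here as arteriovenous fistula and chronic kidney disease because the labels leave them open. Vessel, operation and disease model cannot be told apart between the groups. Strain, sex, age, genotype and whether the libraries stem from different mice are not in the labels, so the tests read only the spread among these samples, which may be technical. Unless stated otherwise, group values are means ± SD over n = 6 libraries, and log2 differences (AVF-CKD over sham, as fitted by edgeR) carry ± SE.

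The receptor encoded by Ahr waits in the cytosol with HSP90 chaperones until it binds a ligand, then enters the nucleus and pairs with ARNT, its partner among the bHLH-PAS transcription factors. The pair binds xenobiotic response elements and turns on Cyp1a1 and Cyp1b1, cytochrome P450 genes whose products oxidise many ligands, together with Ahrr, which encodes a repressor that competes for ARNT, and Tiparp, which encodes an ADP-ribosyltransferase that limits the receptor. Indoxyl sulfate and kynurenine, solutes that build up in kidney failure, are known ligands, and in vessel walls the pathway is known for raising tissue factor. Cyp1a1 is the usual readout of strong receptor activity, while Cyp1b1 is also made by stromal cells at rest.

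The sequences just before the starts of the 4 genes that the receptor is known to induce are shown because they hold the letters of its binding site. They come from RefSeq (build GRCm38.p6) on each gene's own strand, without bases that GENCODE places in an exon of the gene. Capitals mark GCGTG, the core of the response element, or CACGC, the same core on the other strand.
Ahrr (chr13:74292332-74292581, minus strand): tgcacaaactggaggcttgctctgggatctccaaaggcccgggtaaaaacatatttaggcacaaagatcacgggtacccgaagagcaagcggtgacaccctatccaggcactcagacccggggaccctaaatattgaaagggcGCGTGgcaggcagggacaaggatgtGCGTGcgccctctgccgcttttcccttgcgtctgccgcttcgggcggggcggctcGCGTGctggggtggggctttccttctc
Cyp1b1 (chr17:79715062-79715311, minus strand): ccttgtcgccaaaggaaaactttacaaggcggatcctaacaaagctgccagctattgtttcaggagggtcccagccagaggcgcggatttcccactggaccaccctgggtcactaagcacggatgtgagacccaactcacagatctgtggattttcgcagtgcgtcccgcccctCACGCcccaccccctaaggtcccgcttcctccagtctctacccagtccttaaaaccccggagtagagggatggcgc
Tiparp (chr3:65528197-65528409, plus strand): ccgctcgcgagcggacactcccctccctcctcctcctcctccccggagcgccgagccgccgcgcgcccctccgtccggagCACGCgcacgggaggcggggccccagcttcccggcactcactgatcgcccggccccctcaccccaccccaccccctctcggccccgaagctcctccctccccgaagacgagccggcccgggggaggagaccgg
Cyp1a1 (chr9:57697363-57697612, plus strand): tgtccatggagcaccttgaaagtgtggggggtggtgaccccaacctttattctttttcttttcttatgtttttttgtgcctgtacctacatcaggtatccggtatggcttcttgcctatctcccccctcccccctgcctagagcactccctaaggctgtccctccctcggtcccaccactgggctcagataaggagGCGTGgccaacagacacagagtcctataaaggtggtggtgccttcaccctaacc

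Within the 250 bases before the start, Ahrr held 3 cores, and the other members with an entry, Cyp1b1, Tiparp, Cyp1a1 and Arnt, held 1 each. Ahrr had them at 107, 82 and 27 bases before the start, and its window also held 1 match to the longer TNGCGTG on either strand, which contains the core. The other cores began 76 bases before the start of Cyp1b1, 170 before Tiparp, 54 before Cyp1a1 and 29 before Arnt. Positions count from the start in RefSeq, where the window ends, and for Tiparp the sequence shown stops 37 bases short of it. Over all 32851 windows of the same length 28.2% held GCGTG or its reverse complement, 2.77% held 3 or more, and 4.10% held TNGCGTG. Among other genes that the receptor is known to induce, 5 of 17 windows, from 16 genes, held the core. Unlike the sequences shown, windows were counted whole, with exon bases, and in some of these 5 the core lay only in such bases. A match is a description of letters and not a bound site, and the enhancer best known for Cyp1a1 lies further upstream than this window.

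Per length, Cyp1b1 was the most abundant of the 6 genes and Cyp1a1 the least in both veins. On the scale of counts-per-million (CPM) divided by kilobases of the gene length in the table, the mean level over the 12 libraries was 24.2 for Cyp1b1, 10.2 for Arnt, 6.40 for Tiparp, 6.08 for Ahr, 0.229 for Ahrr and 0.0495 for Cyp1a1. Cyp1b1 was above Arnt and Arnt above Tiparp in 12 of 12 libraries, with no overlap between the genes' ranges. Tiparp was above Ahr in 8 of 12, so the order of these neighbours was not beyond their spread. Ahr was above Ahrr in 12 of 12 libraries, by 26.6 times on the means, and Ahrr above Cyp1a1 in 11 of 12. Among all 18965 genes tested, 86.6% had a lower level per length than Cyp1b1 and 6.87% a lower one than Ahrr.

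**Figure D1:**
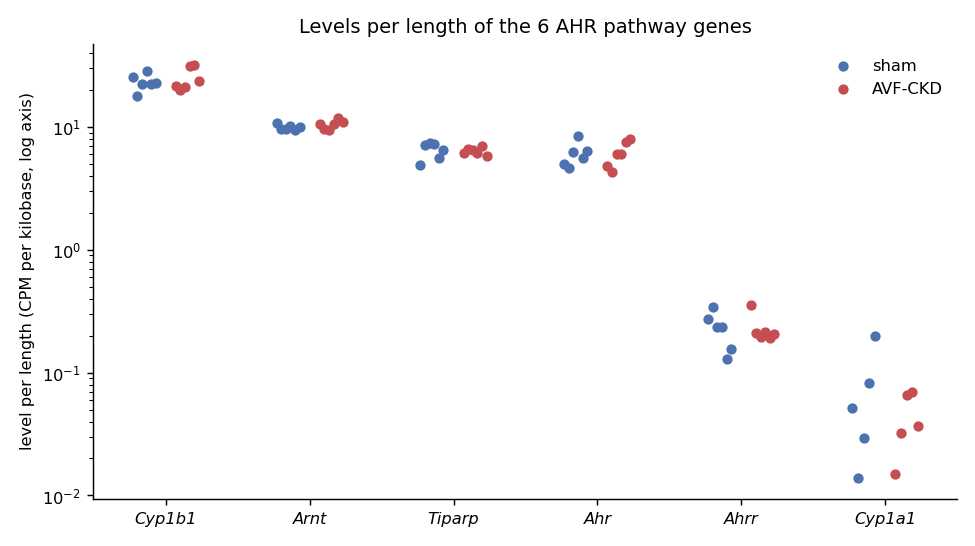
Level per length (CPM per kilobase, log axis) of each gene, with 1 point for each of 6 sham (blue) and 6 AVF-CKD (red) libraries. Cyp1b1 lies highest and Cyp1a1 lowest; the libraries sham 4 and AVF-CKD 2, with a Cyp1a1 count of 0, cannot be drawn on this axis.

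Depth ranged from 38.65 M to 60.14 M counts a library (M, mega). Endothelial and smooth muscle markers, which define a vein wall, were present in every library, at summed levels of 1074 to 1712 CPM for 8 endothelial genes and 1263 to 2589 CPM for 8 smooth muscle genes. Macrophage markers (7 genes) had sums of 5335 to 10501 CPM over sham libraries and 5720 to 10605 CPM over AVF-CKD libraries. Fat markers (8 genes) ranged from 1178 to 5115 CPM over sham libraries and from 865 to 1821 CPM over AVF-CKD libraries, and skeletal muscle markers (8 genes) ranged from 459 to 12355 CPM over both groups. In such bulk samples fewer cells of a type and less RNA per cell cannot be told apart.

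No gene of the pathway passed the test between the fistula vein and the sham vein, and the groups overlapped in every one. Of the 5 genes with enough counts to be tested (all but Cyp1a1), edgeR's quasi-likelihood test called 0 at an adjusted p of 0.05, as it called 0% of the 18965 genes tested, and 0 had an unadjusted p below 0.05, against 9.34% of all genes. DESeq2 also called 0 of the 5 (adjusted p from 0.736 for Arnt to 0.998 for Ahrr), and 0.62% of the genes to which it gave an adjusted p. In 0 of the 6 genes did the groups separate without overlap, against 0.638% of genes tested. Each of the 5 had a 95% fold interval that stayed inside 1.5-fold both ways, which held for 65.3% of all genes tested (86.7% lay within 2-fold).

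The receptor gene Ahr (ENSMUSG00000019256, GRCm38 chromosome 12, 35497974 to 35535038) stood at 31.0, 28.6, 38.6, 52.0, 34.2 and 39.4 CPM in sham 1 to 6 and at 29.7, 26.5, 36.9, 37.2, 46.4 and 49.2 CPM in AVF-CKD 1 to 6. Sham 4 and AVF-CKD 5 and 6 were the high libraries and sham 2 and AVF-CKD 1 and 2 the low ones, and 5 of 6 AVF-CKD libraries lay inside the sham range. Its mean was 37.3 ± 8.35 CPM in sham veins against 37.6 ± 8.91 CPM in AVF-CKD veins, with a log2 difference of 0.01 ± 0.17 (adjusted p = 0.989 by edgeR; 95% interval of the fold 0.781 to 1.31). The spread of Ahr among libraries of the same group, an SD of 0.33 on the log2 CPM scale, was larger than that of 87.1% of the 6048 genes within 2-fold of its level, whose median was 0.17. Its coefficient of variation was 22.4% over sham and 23.7% over AVF-CKD libraries, where counting error at its mean of 1814 counts gives 2.35%. A model on the opposite strand overlaps 2.06% of its exonic bases.

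Arnt (ENSMUSG00000015522, chromosome 3, 95434388 to 95497240), the partner of the receptor and of the hypoxia-inducible factors, varied least of the 5 tested genes, with an SD of 0.10 on the log2 CPM scale within groups, and 17.4% of the 4260 genes within 2-fold of its level varied less. It stood at 86.2, 77.0, 76.5, 82.2, 75.4 and 79.8 CPM in sham 1 to 6 and at 84.5, 77.5, 75.6, 84.9, 94.4 and 88.0 CPM in AVF-CKD 1 to 6. AVF-CKD 5 and 6 lay above every sham library, and the other 4 lay inside the sham range. The means were 79.5 ± 4.10 CPM against 84.2 ± 6.91 CPM, with a log2 difference of 0.08 ± 0.06 (adjusted p = 0.731 by edgeR; 95% interval of the fold 0.961 to 1.17).

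Ahrr (ENSMUSG00000021575, chromosome 13, 74211118 to 74292331), the repressor and itself a target of the receptor, was scarce, with 56 to 175 counts per library. It stood at 2.53, 3.17, 2.20, 2.20, 1.21 and 1.45 CPM in sham 1 to 6 and at 3.34, 1.96, 1.82, 2.01, 1.77 and 1.92 CPM in AVF-CKD 1 to 6. AVF-CKD 1 was the highest of all libraries, while the other 5 of its group lay between 1.77 and 2.01 CPM, and sham 5 and 6 were the lowest. Means of 2.13 ± 0.712 CPM against 2.14 ± 0.596 CPM gave a log2 difference of 0.00 ± 0.24 (adjusted p = 0.999 by edgeR; 95% interval of the fold 0.701 to 1.44). Without AVF-CKD 1 the log2 fold change of Ahrr was -0.17 and without sham 2 it was 0.15, neither called.

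Cyp1b1 (ENSMUSG00000024087, chromosome 17, 79706953 to 79715041) was abundant in both veins. It stood at 131, 91.1, 116, 148, 116 and 117 CPM in sham 1 to 6 and at 111, 102, 108, 162, 165 and 122 CPM in AVF-CKD 1 to 6. AVF-CKD 4 and 5 lay above every sham library and the other 4 within the sham range. The means were 120 ± 18.9 CPM against 128 ± 27.9 CPM, with a log2 difference of 0.10 ± 0.14 (adjusted p = 0.867 by edgeR; 95% interval of the fold 0.863 to 1.33). Leaving out AVF-CKD 5 brought the log2 fold change of Cyp1b1 to 0.01, and leaving out sham 4 to 0.17.

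Tiparp (ENSMUSG00000034640, chromosome 3, 65528410 to 65555518), the ADP-ribosyltransferase gene, stood at 21.5, 31.3, 32.2, 31.4, 24.2 and 28.03 CPM in sham 1 to 6 and at 26.8, 28.8, 28.1, 26.6, 30.3 and 25.3 CPM in AVF-CKD 1 to 6. All 6 AVF-CKD libraries lay inside the sham range, with sham 2, 3 and 4 above them and sham 1 and 5 below. The means were 28.1 ± 4.38 CPM against 27.6 ± 1.77 CPM, with a log2 difference of -0.02 ± 0.10 (adjusted p = 0.960 by edgeR; 95% interval of the fold 0.847 to 1.14). A model on the opposite strand overlaps 5.12% of its exonic bases, and with a strand setting that is not known, reads of the pair there cannot be told apart.

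Cyp1a1 (ENSMUSG00000032315, chromosome 9, 57697613 to 57703822), the most inducible target, was close to absent. Its counts were 8, 2, 4, 0, 10 and 25 in sham 1 to 6 and 2, 0, 4, 8, 8 and 5 in AVF-CKD 1 to 6. A count of 0 allows up to 0.0695 CPM for sham 4 and up to 0.0775 CPM for AVF-CKD 2, limits (3 counts) that cover counting error only. Its level was 0.164 ± 0.190 CPM in sham veins against 0.0956 ± 0.0714 CPM in AVF-CKD veins (two-sided exact permutation test, p = 0.545), and it did not pass the filter on low counts. With no such filter the edgeR fit gave it a log2 difference of -0.76 ± 0.79 (adjusted p = 0.774). Sham 6 gave 25 of the 49 sham counts, and at 0.519 CPM it lay above the 0 to 0.217 CPM of the other 11 libraries. The same library had the highest summed levels of epithelium and neck gland markers (31.0 CPM against 1.79 to 11.2 CPM) and of fat markers (5115 CPM against 865 to 2215 CPM). Of the 8 epithelium and neck gland markers listed, only the 5 that passed the filter on low counts entered the sum. The part of both lists in the Cyp1a1 counts of sham 6 was not tested. Without sham 6 the sham mean was 0.0928 CPM ± 0.0854 (SD, n = 5). All 6 AVF-CKD libraries lay inside the sham range.

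**Figure D2:**
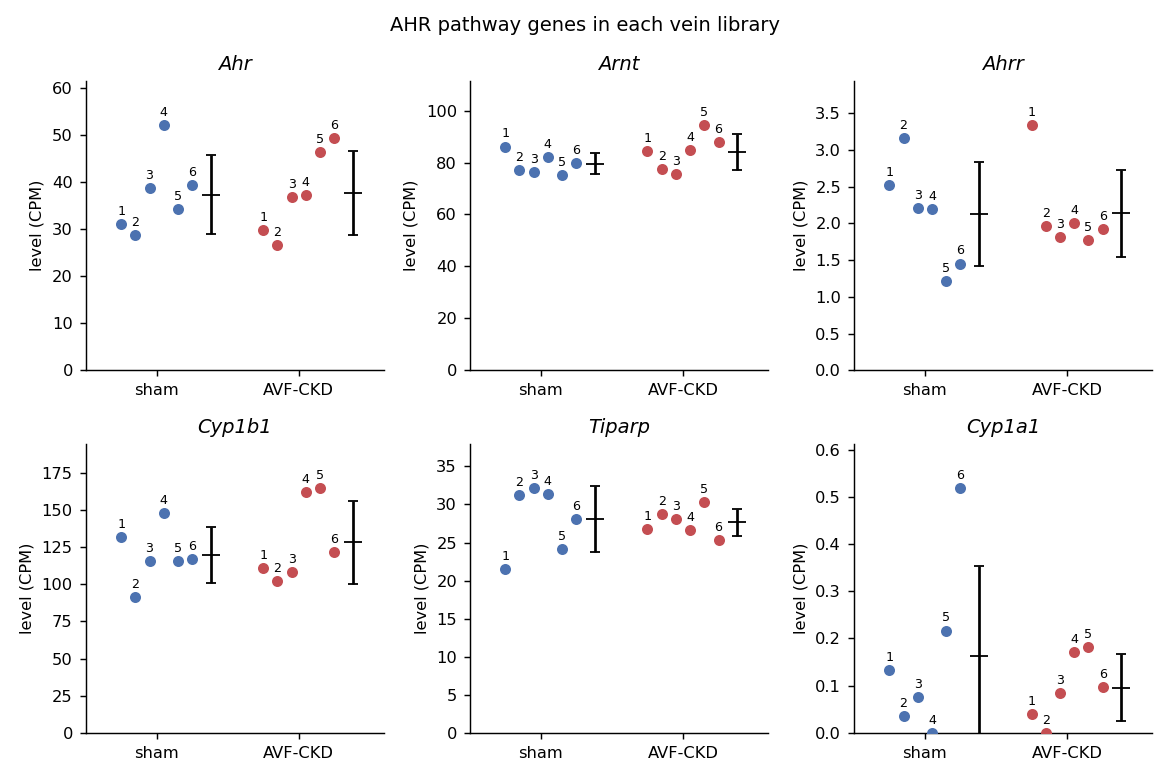
Level in counts-per-million (CPM) of each gene in every library, with library numbers beside the points and the mean ± SD of 6 libraries beside each group (the SD bar of Cyp1a1 in sham is cut at 0). The groups overlap in all 6 genes, and Ahr ranges from 26.5 to 52.0 CPM with like spread in both groups.

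Ratios of the targets to the receptor within a library, which do not depend on library scaling, also did not separate the groups. The log2 ratio of Cyp1b1 to Ahr counts was 1.69 ± 0.21 in sham veins against 1.77 ± 0.30 in AVF-CKD veins, a difference of 0.08 (two-sided exact permutation test, p = 0.600). That of Tiparp to Ahr was -0.40 ± 0.30 and -0.41 ± 0.37 (exact permutation p = 0.931), and that of Ahrr to Ahr -4.18 ± 0.67 and -4.14 ± 0.60 (exact permutation p = 0.942). Over the 5 ratios, Arnt and Cyp1a1 included, every adjusted p was 0.942.

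Members did not vary together closely enough from library to library to pass a test over the 15 pairs. The closest pairs over the 12 libraries were Arnt with Cyp1b1, with r = 0.71 on log2 CPM (permutation p = 0.00933, adjusted p = 0.140) and rho = 0.69 (permutation p = 0.0154, adjusted p = 0.116), and Ahr with Cyp1b1, with r = 0.64 (permutation p = 0.0266, adjusted p = 0.199) and rho = 0.71 (permutation p = 0.0129, adjusted p = 0.116). After group means were removed r was 0.71 and 0.65. Without AVF-CKD 5 and 6 the r of Arnt with Cyp1b1 was 0.64, and without AVF-CKD 2 and sham 4 that of Ahr with Cyp1b1 was 0.52. The next in size was negative, Ahrr with Cyp1a1, whose counts were few. That pair had r = -0.57 (permutation p = 0.0498, adjusted p = 0.249) and rho = -0.65 (permutation p = 0.0243, adjusted p = 0.121). Its r was -0.52 without AVF-CKD 1 and sham 5. Ahrr, which the receptor is known to induce, had r = -0.36 with Ahr (permutation p = 0.253, adjusted p = 0.632; rho = -0.38, permutation p = 0.227, adjusted p = 0.506), and r = -0.56 without AVF-CKD 2 and sham 4. Tiparp had r = 0.22 with Ahr (permutation p = 0.482, adjusted p = 0.698; rho = 0.17, permutation p = 0.587, adjusted p = 0.652), and r = 0.16 without the same libraries.

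**Figure D3:**
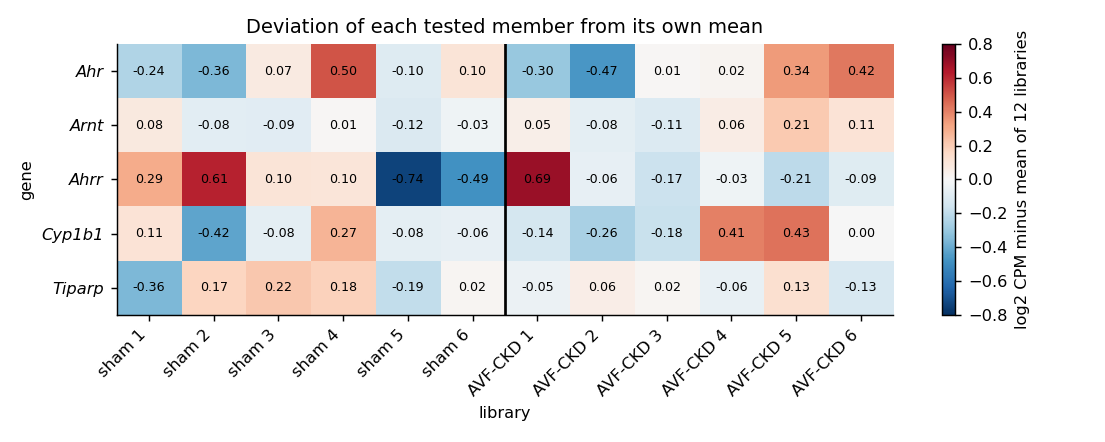
Deviation of log2 CPM from the gene's mean over 12 libraries for the 5 tested members (rows), by library (columns, sham left and AVF-CKD right of the line). Ahr is high in sham 4 (0.50) and AVF-CKD 6 (0.42), Cyp1b1 in AVF-CKD 4 (0.41) and 5 (0.43), and Ahrr in AVF-CKD 1 (0.69) and sham 2 (0.61). AVF-CKD 5 is above the mean in Ahr (0.34), Arnt (0.21), Cyp1b1 and Tiparp (0.13) and below it in Ahrr (-0.21).

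The genes whose pattern was most like that of each member were found by the r of log2 CPM with group means removed, over 12 libraries and 13581 named genes with a mean of at least 1 CPM, and are given as a description. For Ahr they were Acbd5 (r = 0.94), Col4a3bp (0.92) and Zmym2 (0.92). For Arnt they included Plxdc2 (0.97) and Siae (0.96), and for Cyp1b1 they were Eid2b (0.95), Rabgap1 (0.95) and Itgb8 (0.94). For Ahrr they were Tapbp (0.92), Pnp2 (0.92) and Tapbpl (0.91), and Tapbp and Tapbpl encode helpers of antigen loading on MHC class I. Picking the highest r among so many genes favours large values, and a link of Ahrr with antigen loading was not tested. For Tiparp they were Pptc7 (0.89), Ccnl1 (0.87) and Fgd4 (0.87). No member stood among the 3 genes closest to another member, and Cyp1a1 was below the 1 CPM minimum. With 3 places among 13581 genes this says little about whether members vary together.

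Among 22 other genes that the receptor is known to induce, edgeR called 0 of the 18 tested. Their median log2 difference was 0.09, against -0.0025 over all genes tested, with 13 positive and 5 negative. At an unadjusted p below 0.05 there were 5 higher in AVF-CKD, against 5.26% of all genes tested, and 0 lower, against 4.08%. That count of 5 was 2 without sham 1, 3 when any 1 of sham 2, sham 5 and AVF-CKD 1, 2 and 4 was left out, 6 within title numbers 1 to 3 and 0 within 4 to 6, and leaving out 1 library moved the median between 0.06 and 0.18 (over 1.5 times without sham 1, sham 3 or AVF-CKD 2, 4 or 6). Of the 5, the models Ugt1a6a, Ugt1a6b and Ugt1a7c belong to a single locus of glucuronosyltransferase genes with shared last exons, where 50.3% to 60.6% of their exonic bases overlap other models, so they are not separate observations and their split is uncertain. Ugt1a7c stood at 62.4 ± 13.3 CPM in sham veins against 83.7 ± 13.7 CPM in AVF-CKD veins, with a log2 difference of 0.43 ± 0.15 (adjusted p = 0.444 by edgeR).

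The other 2 were Cyp2s1, a cytochrome P450 gene, at 0.787 ± 0.253 CPM in sham veins against 1.29 ± 0.336 CPM in AVF-CKD veins (log2 difference 0.72 ± 0.24, adjusted p = 0.424 by edgeR), and Slc7a5, which encodes a transporter of large neutral amino acids, at 13.2 ± 3.62 CPM against 17.1 ± 1.37 CPM (log2 difference 0.37 ± 0.15, adjusted p = 0.492 by edgeR). The highest CPM of these genes was that of Xdh, which encodes xanthine dehydrogenase, at 144 ± 36.9 CPM in sham veins against 165 ± 28.8 CPM in AVF-CKD veins (log2 difference 0.20 ± 0.17, adjusted p = 0.752 by edgeR). F3, which encodes tissue factor, had a log2 difference of -0.03 ± 0.30 (adjusted p = 0.989 by edgeR). Nqo1, a quinone reductase gene that the receptor shares with NRF2, had one of -0.03 ± 0.18 (adjusted p = 0.978 by edgeR). Cyp1a2, the liver relative of Cyp1a1, Gsta1, Gsta2 and Il22 did not pass the filter on low counts.

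**Figure D4:**
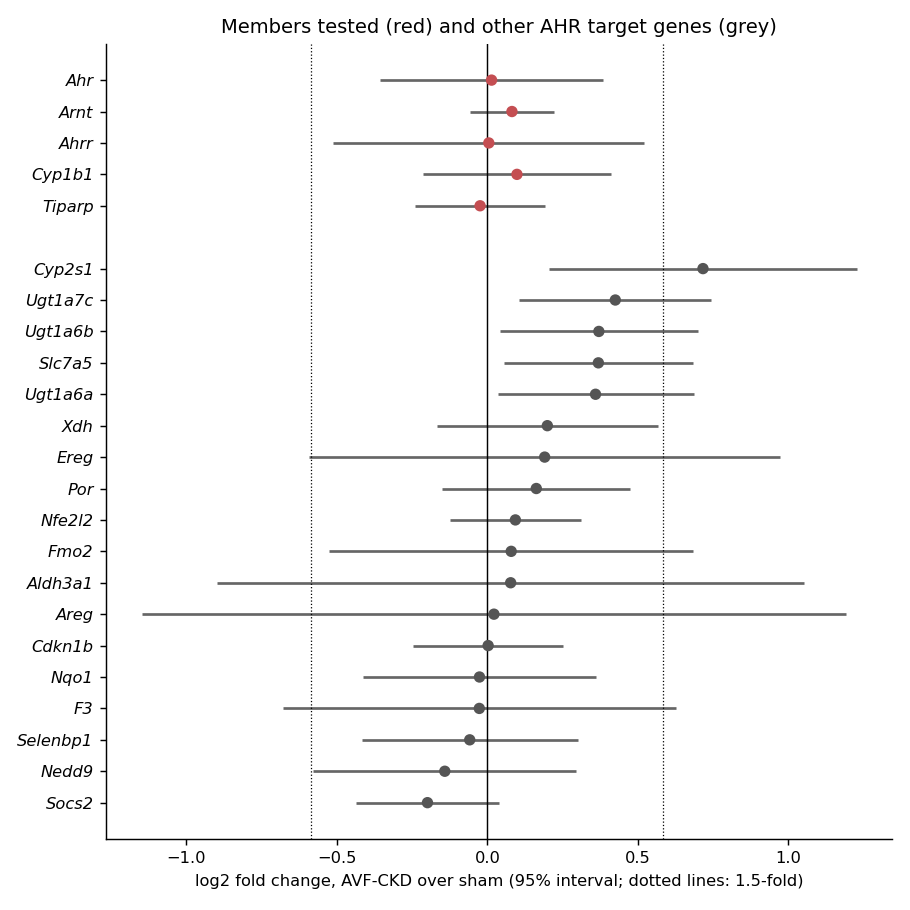
Log2 fold change (AVF-CKD over sham) with its 95% interval from edgeR for the 5 tested members (red) and the 18 other tested target genes (grey), with dotted lines at 1.5-fold. The 5 members lie between -0.02 and 0.10 with intervals inside the dotted lines, and the 5 grey genes whose interval leaves out 0 are Cyp2s1, Slc7a5 and 3 models of the Ugt1a locus.

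Genes that hold, assist or remove the receptor showed 0 calls of 12 tested, with 6 positive and 6 negative and a median log2 difference of 0.03 (from 0.0040 without sham 3 to 0.053 without sham 4, and over 1.5 times lower also without sham 2 or AVF-CKD 5 or 6). At an unadjusted p below 0.05 there were 1 higher and 1 lower, against 5.26% and 4.08% of all genes tested. Leaving out 1 library moved the higher count between 0 and 3 and the lower count between 1 and 2. Hsp90ab1, the constitutive HSP90 gene and the one with the highest CPM of the list, was at 885 ± 64.5 CPM in sham veins against 874 ± 54.6 CPM in AVF-CKD veins. Its stress-inducible relative Hsp90aa1 was at 143 ± 11.2 CPM against 119 ± 15.6 CPM (log2 difference -0.27 ± 0.09; adjusted p = 0.435 by edgeR), and Ep300, a histone acetyltransferase and coactivator gene, at 57.3 ± 5.62 CPM against 67.6 ± 9.33 CPM (log2 difference 0.24 ± 0.10; adjusted p = 0.498 by edgeR).

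The routes that make or carry the ligands also gave 0 calls. Of 11 tested genes of tryptophan and kynurenine breakdown, 10 had negative log2 differences (median -0.18), where 49.1% of all genes tested were positive. The tally depended on the libraries, with 7 positive and 4 negative within title numbers 4 to 6 (median 0.12) and a median of -0.04 without AVF-CKD 3, -0.06 without AVF-CKD 6, -0.08 without sham 2, -0.10 without sham 3 and -0.11 without AVF-CKD 4. Ccbl2, which encodes a kynurenine aminotransferase, was the single gene with an unadjusted p below 0.05 (lower, 1 of 11, against 4.08% of all genes), and the count was 0 when any 1 of sham 3, 4 and 6 and AVF-CKD 3 and 5 was left out. Ccbl2 stood at 6.87 ± 1.52 CPM in sham veins against 5.39 ± 0.591 CPM in AVF-CKD veins (adjusted p = 0.501 by edgeR). Il4i1, an amino acid oxidase gene and the one with the highest CPM of the list, was at 20.7 ± 4.91 CPM against 20.4 ± 1.95 CPM, but 86.3% of its exonic bases overlap the models of Atf5, Nup62 and Tbc1d17, so its counts and its place in the list are uncertain. The indole-oxidising and organic anion list had 7 tested genes, 3 positive and 4 negative, with a median of -0.15 that ran from -0.30 without AVF-CKD 3 to 0.014 without AVF-CKD 2 and moved over 1.5 times also without sham 2, 3 or 4 or AVF-CKD 1 or 4. At an unadjusted p below 0.05 this list had 0 higher and 2 lower, against 5.26% and 4.08% of all genes tested. The count of 2 was 0 when any 1 of sham 1, 3 and 6 and AVF-CKD 6 was left out. Cyp2e1, a cytochrome P450 gene also made by fat, was at 228 ± 103 CPM in sham veins against 135 ± 28.8 CPM in AVF-CKD veins (log2 difference -0.76 ± 0.31, adjusted p = 0.501 by edgeR), beside fat markers that were all 8 negative with a median of -1.09. Without sham 6 the fat markers were 7 negative and 1 positive with a median of -0.50, and Cyp2e1 had a log2 difference of -0.65 ± 0.33 (adjusted p = 0.696 by edgeR). With fat and skeletal muscle marker levels as covariates it had -0.45 ± 0.33. Abcg2, an efflux transporter gene for urate and other organic anions, was at 45.4 ± 5.78 CPM against 38.5 ± 5.59 CPM (adjusted p = 0.527 by edgeR). Slc22a6 and Slc22a8, the renal uptake transporters of indoxyl sulfate, had 0 counts in all 12 libraries.

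Among the receptor's relatives edgeR also made 0 calls. Of 11 tested bHLH-PAS relatives 3 were positive and 8 negative. Their median of -0.11 was -0.016 without the 4 libraries of low Dbp, a clock gene (sham 4, 5 and 6 and AVF-CKD 6). It also moved over 1.5 times without sham 4, 5 or 6 or AVF-CKD 1, 2, 3 or 6, between -0.16 and -0.03. The most negative were the clock genes Arntl (-0.82 ± 0.49) and Npas2 (-0.67 ± 0.75; adjusted p = 0.640 and 0.819 by edgeR), and the summed CPM of 13 clock genes ran from 345 to 839 over the 12 libraries; the part of the clock in these values was not tested. Hif1a, the hypoxia-inducible factor gene, was at 273 ± 34.6 CPM against 301 ± 61.7 CPM (8.11% of its exonic bases overlap other models), and Sim2, a developmental factor gene, at 12.5 ± 3.57 CPM against 9.51 ± 2.18 CPM (edgeR adjusted p = 0.777 and 0.594).

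The sign of the small log2 differences of 4 of the 5 tested genes differed between sets of libraries split by title number, without a call in either. Within title numbers 1 to 3 (3 libraries a group) the log2 differences were -0.08 ± 0.15 for Ahr, -0.01 ± 0.08 for Arnt, -0.15 ± 0.28 for Ahrr, -0.08 ± 0.14 for Cyp1b1 and -0.02 ± 0.15 for Tiparp. Within title numbers 4 to 6 they were 0.08 ± 0.18 for Ahr, 0.17 ± 0.08 for Arnt, 0.23 ± 0.27 for Ahrr, 0.24 ± 0.16 for Cyp1b1 and -0.03 ± 0.13 for Tiparp. The lowest edgeR adjusted p in either set was 0.494, for Arnt in numbers 4 to 6, and the difference between the sets was not tested. Marker lists also turned between the same sets. The median log2 difference was -0.44 (0 of 8 positive) and then 0.09 (7 of 8) for fibroblast markers. It was 1.06 and -1.77 for skeletal muscle and 0.94 and -0.35 for neutrophils. For epithelium and neck gland (5 of 8 genes tested) it was 0.38 and -2.17, and for clock genes -0.03 and 0.96. The 4 libraries of low Dbp (sham 4, 5 and 6 and AVF-CKD 6) all carry numbers 4 to 6, so every sham library of that set was of low Dbp. The part of the marker lists and of low Dbp in the values of the 5 genes was not tested.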

How the data were processed

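RNA of 12 vein samples was extracted with Trizol and a Qiagen kit and made into libraries with a TruSeq v2 kit, per the labels' protocols. The submitters' processing notes name the build GRCm38, TopHat2 2.1.0, featureCounts and edgeR, without the step of each; the annotation release and strand setting are not stated there. The authors deposited whole-number counts for each gene, which were the input here. RPKM columns deposited beside them divide by a library total 1.15 to 1.19 times the sum of counts and were not used, so levels per length here are TMM-scaled CPM divided by the length in the deposited table. All 66 pairs of libraries differed by more than sampling noise, with chi-square values of 47.8 to 212 for each degree of freedom.

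After filterByExpr (by group) and TMM scaling, edgeR 4.0.16 (R 4.3.3) fitted all genes by quasi-likelihood with the group as single term. P-values were Benjamini-Hochberg adjusted and called below 0.05. The fit was also run on simulated counts drawn for each gene separately, without variation shared among genes. Such a run does not show its power on these libraries. Log2 CPM used a prior count of 2. Alternatives were other scaling, no filter, DESeq2 1.42.0, limma 3.58.1 voom, the title number as a block, title numbers 1 to 3 against 4 to 6, marker covariates and leaving out libraries. Single values were tested by exact permutation over 924 assignments and relations by 100000 permutations; 0.5 was added to Cyp1a1 counts for its ratio. Members and lists were chosen with earlier results of these data known. Named genes were the members, the highest-CPM and smallest-p gene of each pathway list, those with an unadjusted p below 0.05 there, and the 3 genes most like each member; F3, Nqo1, Cyp1a2, Gsta1, Gsta2, Il22, Arntl, Npas2, Slc22a6 and Slc22a8 were named after their values were seen, and marker lists are given by their sums. Exon overlaps came from GENCODE M21 (GRCm38) and promoters from RefSeq GRCm38.p6, where 5 of the 6 members had an entry; the planned comparison of proteins was not run. Results of a few genes are not reported here, and the list of other target genes was shortened accordingly.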

Additional observations from a re-analysis of the deposited data

Results flagged for a closer look

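Ahrr in AVF-CKD 1, at 3.34 CPM, lay far from the other 5 AVF-CKD libraries (1.77 to 2.01 CPM), with a gap of 0.848 of the group's range, above the Dixon limit for 6 samples. It was the single such case among 22 groups of 6 values (6 genes and 5 ratios in each of 2 groups), where chance gives about 1 in 20.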

How the results depend on the processing

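Under all 23 alternatives 0 members were called, and the signs of these small fold changes were not stable. The number of genes called was 0 except with DESeq2 (106) and, over leaving out each library, ranged from 0 to 1 (the 1 without AVF-CKD 3). The log2 fold change of Ahr was negative with limma voom (-0.051) and within title numbers 1 to 3 (-0.076). Ahrr was negative within title numbers 1 to 3 (-0.15), with fat and muscle marker levels as covariates (-0.11), and without the 4 libraries of low Dbp, a clock gene (-0.27, chosen after seeing the data). Arnt (-0.014) and Cyp1b1 (-0.076) were negative within title numbers 1 to 3. Leaving out each library in turn gave -0.078 to 0.13 for Ahr, -0.17 to 0.15 for Ahrr, 0.046 to 0.11 for Arnt, 0.013 to 0.17 for Cyp1b1, -0.090 to 0.015 for Tiparp, -0.049 to 0.020 for Hsp90ab1 and -0.12 to 0.073 for Il4i1. Over all alternatives edgeR, DESeq2 or voom adjusted p-values of these 5 genes were 0.494 or higher. Among other named genes, Il4i1 turned positive with the title number as a replicate block (0.0025) and within title numbers 4 to 6 (0.11). Same-numbered libraries of the 2 groups had correlations of deviations from -0.11 to 0.28, over 0.1 for 3 of 6 numbers. These 6 values cannot tell whether such libraries share more than a number. The block called 0 genes. Cyp1a1 was fitted with no filter only and could not be fitted under the alternatives that keep the filter. Depth limits Cyp1a1, at 0 to 25 counts, more than the other members.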

Other observations

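Relations of the 5 tested members to the mean log2 CPM of 10 lists of cell type markers and clock genes were computed after the data were seen, 50 in all. Arnt and the 8 fibroblast markers had r = 0.67 over the 12 libraries (permutation p = 0.0166, adjusted p = 0.421) and rho = 0.54 (permutation p = 0.0748, adjusted p = 0.771), which do not pass. With group means removed and permutation within groups r was 0.87 (p = 0.00084, adjusted p = 0.0420), and 0.72 without the 2 libraries farthest in Arnt. Cyp1b1 and the same markers had r = 0.67 with group means removed (permutation p = 0.0264, adjusted p = 0.310), and 0.45 without AVF-CKD 4 and 5. The others of at least that size on this measure were Arnt with neutrophil markers, Arnt with macrophage markers and Ahrr with clock genes. Arnt was at -0.71 with neutrophil markers (permutation p = 0.0139, adjusted p = 0.232) and at -0.69 with macrophage markers (permutation p = 0.0137, adjusted p = 0.232). Ahrr was at 0.70 with clock genes (permutation p = 0.0310, adjusted p = 0.310). Without the 2 libraries farthest from the member's median after group means were removed, the values were -0.41, -0.61 and 0.68. Over the 12 libraries as they stand these 3 had r = -0.55, -0.37 and 0.67 and rho = -0.34, -0.38 and 0.57. Without group means removed, 0 of the 50 relations passed.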
